A study of Mus musculus with 31 samples.

Results

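The miR-200 family with miR-141 and miR-429 was described across the small-RNA-seq libraries of mouse embryonic stem cells (mESCs). Its members were the rows of the miRNA table whose names start with miR-200a, miR-200b, miR-200c, miR-141, or miR-429, which gave 9 of the 507 miRNAs in the table. These are the 3p and 5p arms of miR-200a, miR-200b, miR-200c, and miR-141, and the 3p arm of miR-429. The rule used names only, but the family was chosen with earlier results of these data known. The small-RNA-seq had 16 libraries, 4 from each of 4 genotypes on the ES-E14TG2a background. WT mESCs are the comparison line. The study also gave this name to cells with a FLAG-tag on both *Trim71* alleles. Its list of cell lines names FLAG-Trim71 for each of the mutant genotypes below as well. The labels of these libraries do not mention a tag for any genotype. CLIPΔ mESCs lack, on both alleles, the region of the *Ago2* 3'UTR that the RNA-binding protein Trim71 contacts. The remaining genotypes were *Ago2* KO, which carries a deletion of *Ago2*, and *Ago2* KO/CLIPΔ, which carries both changes. The study isolated more than 1 CLIPΔ clone, and the labels do not say which clone a library came from. They call the libraries biological replicates and do not say whether these were separate cultures, so the p-values measure the spread between libraries only. By the study's account, the cells profiled by sequencing grew in medium with Lif and the inhibitors CHIR99021 and PD0325901.

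miRNAs are short RNAs that guide Argonaute proteins to matching sites in mRNAs, mostly through the seed, bases 2 to 8 of the miRNA. A miRNA is cut from a hairpin, which gives a 5p and a 3p arm, and in most hairpins 1 arm is the abundant one. The miR-200 family is known as a guardian of the epithelial state. It represses *Zeb1* and *Zeb2*, transcription factors that switch off E-cadherin (*Cdh1*), and these factors in turn repress the miR-200 genes.

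The mature sequences, from RefSeq on GRCm38.p6 and written 5' to 3' with the seed in capitals, are shown because the 3p arms fall into 2 seed groups that cut across the 2 genomic loci. The 3p arms with the seed AAUACUG were these.
miR-200b-3p: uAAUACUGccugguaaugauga
miR-200c-3p: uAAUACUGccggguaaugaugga
miR-429-3p: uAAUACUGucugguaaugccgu
The 3p arms with the seed AACACUG were these.
miR-200a-3p: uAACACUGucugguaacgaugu
miR-141-3p: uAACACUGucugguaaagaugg
The 5p arms in the table were these.
miR-200b-5p: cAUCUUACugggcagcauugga
miR-200a-5p: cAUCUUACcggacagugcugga
miR-200c-5p: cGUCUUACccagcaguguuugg
miR-141-5p: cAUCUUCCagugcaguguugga
No miRNA of the table outside the family had either 3p seed. The 2 seeds differ at 1 base, position 4 counted from the 5' end. Over the first 22 bases, miR-200b-3p differed from miR-200c-3p at 2 positions (U11G and A22G) and from miR-429-3p at 4 positions (C9U, A19C, U20C, and A22U). Between miR-200a-3p and miR-141-3p there were 2 differences (C17A and U22G). In each substitution the first-named miRNA comes first and positions count from the 5' end. The closest pairs therefore share a seed but not a locus.

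The hairpins of miR-200b, miR-200a, and miR-429 lie within 1846 bp on the minus strand of chromosome 4, and those of miR-200c and miR-141 within 477 bp on the minus strand of chromosome 6. On GRCm38, the same build as mm10, Mir200b is at chr4:156055681-156055750, Mir200a at chr4:156054896-156054985, and Mir429 at chr4:156053905-156053987. GENCODE places all 3 in introns of *Ttll10*, a protein-coding gene on the same strand. Mir200b and Mir200a are also in introns of the non-coding transcript Gm13648, and Mir429 overlaps one of its exons. Mir200c is at chr6:124718322-124718390 and Mir141 at chr6:124717914-124717985. Both are in introns of the non-coding gene Gm15884, and Mir141 overlaps in part an exon of Gm29008, an unverified transcript. In RefSeq, *Ttll10* does not reach the chromosome 4 hairpins and lies 3088 bp from the nearest one.

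Levels are given as TPM, in which the authors scaled the reads of each mature miRNA for its length and for the library total, rescaled here to a total of 1000000 per library. Read totals are not in the table, but 2316 of 2329 low values of single-locus miRNAs were whole multiples (within 0.02) of 1 unit per library once multiplied by the mature length minus 1 base, which gave the number of reads behind each value. The inferred totals ran from 5411246 to 8349737 reads in WT, from 3133864 to 7889709 in CLIPΔ, from 829063 to 1070289 in *Ago2* KO, and from 874134 to 1327971 in *Ago2* KO/CLIPΔ. Every library without *Ago2* was thus shallower than every library with it, and its column was numbered where the others carry letters. The *Ago2* genotype and this difference between library sets cannot be told apart. In the RNA-seq, *Ago2* was at 28.2 and 21.6 TPM in WT, 27.3 and 20.3 TPM in CLIPΔ, and 1.67 to 2.29 TPM in *Ago2* KO. Of the mESC markers, 9 of 10 were in the table and all 9 averaged at least 1 TPM in each genotype, with *Dppa5a* and *Pou5f1* among the highest. The summed markers of primitive endoderm stayed at 3.11 to 7.27 TPM and those of fibroblasts at 1.32 to 3.73 TPM. Trophoblast markers summed to between 49.9 and 97.0 TPM and primed epiblast markers to between 60.9 and 84.9 TPM.

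In WT mESCs, miR-200c-3p was the highest member, at 1527 ± 288 TPM (SD, n = 4), and ranked 64 among the 507 miRNAs. It was followed by miR-200a-3p at 993 ± 369.9 TPM, miR-200b-3p at 639.9 ± 58.7 TPM, miR-429-3p at 537 ± 109.7 TPM, and miR-141-3p at 205 ± 94.0 TPM. The ranges of the 4 libraries overlapped between neighbours among the first 4 members. Within each WT library, however, miR-200c-3p was above miR-200a-3p, and miR-200b-3p was above miR-429-3p. miR-141-3p lay below all 4 without overlap. The 5p arms were lower, at 53.7 ± 16.3 TPM for miR-200a-5p, 35.1 ± 6.05 TPM for miR-200b-5p, 24.5 ± 13.9 TPM for miR-141-5p, and 2.87 ± 0.443 TPM for miR-200c-5p. Of these, the first 3 overlapped with their neighbours and miR-200c-5p lay below them all. Together the 9 members made up 0.402% ± 0.0788 of all miRNA TPM in WT.

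**Figure D1:**
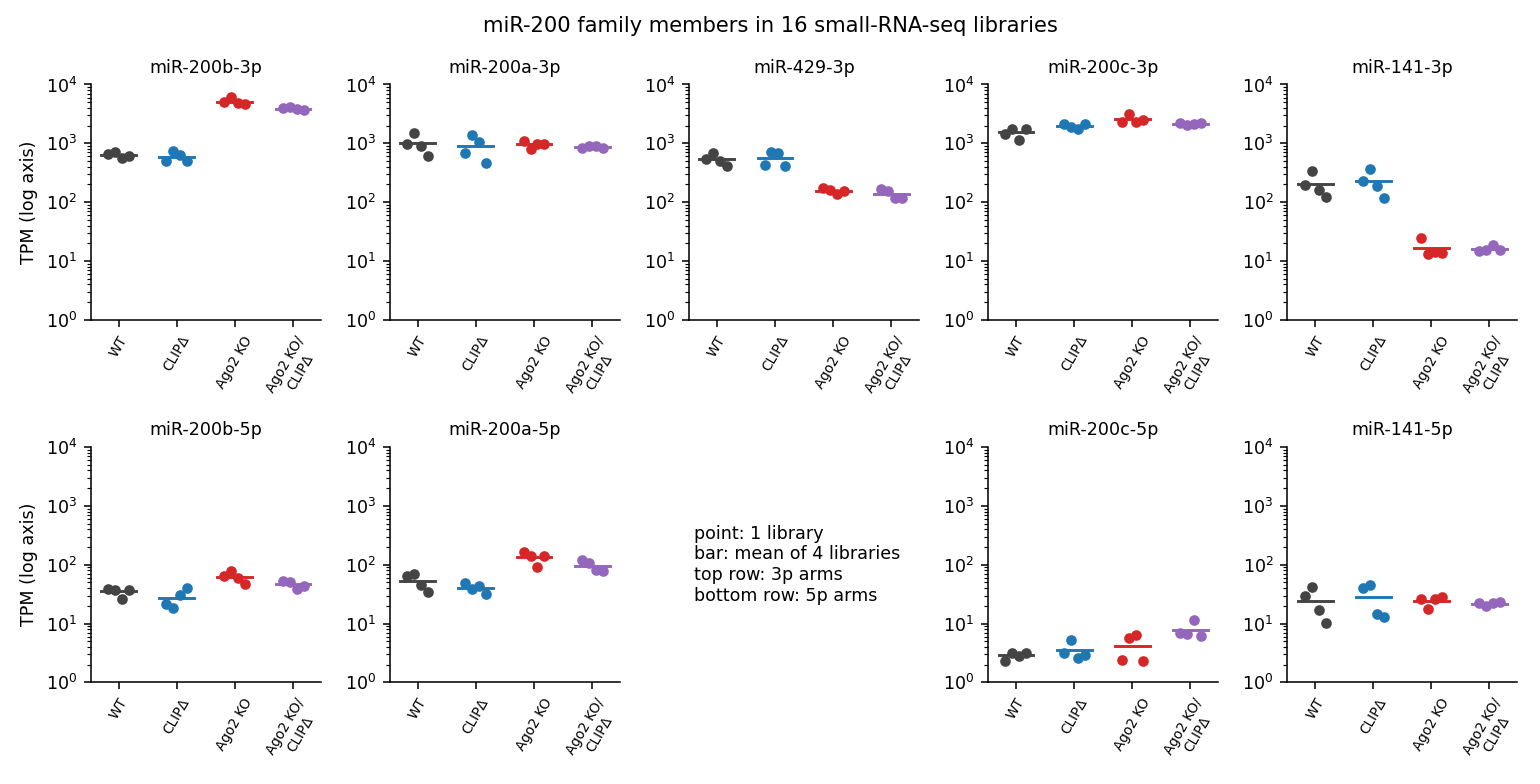
Level of each member in the 16 small-RNA-seq libraries. The y axis is TPM on a log axis, points are libraries, bars are means of 4 libraries, and the genotypes are on the x axis. miR-200b-3p was near 640 TPM in WT and near 5126 TPM in *Ago2* KO, whereas miR-141-3p was near 205 TPM and 16.4 TPM.

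The comparison of CLIPΔ with WT asks what changes when Trim71 can no longer contact *Ago2* mRNA. The family changed little. miR-200c-3p, the most abundant member, was at 1457, 1769, 1149, and 1732 TPM in the WT libraries A, B, C, and D, and at 2097, 1902, 1751, and 2107 TPM in the CLIPΔ libraries with the same letters. The value was higher in CLIPΔ at all 4 letters, although the 2 ranges overlapped slightly, since the lowest CLIPΔ library was below the highest WT library. The log2 difference was 0.38 ± 0.19 (SE; limma, adjusted p = 0.156), which missed the threshold of 0.05. The letters paired the libraries (the evidence is given with the processing), and with the letter as a replicate block the same difference had an adjusted p of 0.0358. That fit called 55.1% of the 227 tested miRNAs, against 27.8% without the block. With values centred on the median miRNA of each library, the difference was 0.18 (adjusted p = 0.523).

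None of the 5 tested members passed the test of CLIPΔ against WT in the fit of its 8 libraries without the block. Of the miRNAs called, 44 rose and 19 fell, or 32 and 28 with median centring. The log2 differences were -0.12 ± 0.19 for miR-200b-3p, -0.19 ± 0.38 for miR-200a-3p, 0.04 ± 0.25 for miR-429-3p, and 0.13 ± 0.39 for miR-141-3p, with adjusted p from 0.678 to 0.899. Median centring turned the last 2 to -0.16 and -0.07. Only 5 members reached the mean of 100 TPM that the test required. The 4 5p arms, tested without that filter, ranged from -0.39 to 0.19 with adjusted p from 0.353 to 0.812, so none of them passed either, where 26.8% of the 507 miRNAs did. With the letter as a block that fit called 51.1% of the miRNAs and still none of the 5p arms. The value of miR-200a-5p was lower in CLIPΔ at all 4 letters, by 0.09 to 0.82 on the log2 scale (adjusted p = 0.143 with the block). Among the 5 tested members, the SE was largest for miR-200a-3p and miR-141-3p.

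Between *Ago2* KO and WT, the family was rearranged. Ago2 is the Argonaute protein that can itself cut RNA. miR-200b-3p was at 666, 706, 570.4, and 618 TPM in WT and at 4939.8, 6042, 4815, and 4709 TPM in *Ago2* KO. All 4 *Ago2* KO libraries were above all 4 WT libraries. The mean was 8.01 times that of WT, a log2 difference of 3.00 ± 0.15 (SE; limma, adjusted p = 5.6e-12). This placed miR-200b-3p 23rd among 249 tested miRNAs, from the highest difference to the lowest. Its mean rank by level moved from 102 to 36 of 507.

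miR-141-3p, whose hairpin is on the other locus, went the opposite way. It was at 198, 338, 163, and 122 TPM in WT and at 24.5, 13.3, 13.9, and 13.8 TPM in *Ago2* KO. The groups did not overlap, and the WT mean was 12.5 times that of *Ago2* KO. The log2 difference was -3.51 ± 0.32 (adjusted p = 2.0e-08), which ranked 242 of 249. The *Ago2* KO values rest on only 12 to 20 inferred reads per library, against 645 to 2752 in WT.

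miR-429-3p, the neighbour of miR-200b on chromosome 4 with the same seed, also fell. It was at 549, 679, 501, and 417 TPM in WT and at 172, 160.4, 135, and 154 TPM in *Ago2* KO. These ranges did not overlap either, and the log2 difference was -1.76 ± 0.20 (adjusted p = 4.1e-07), with 126 to 169 inferred reads in each *Ago2* KO library.

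miR-200c-3p rose by less, from the WT values given above to 2303, 3108, 2315, and 2455 TPM in *Ago2* KO. The groups did not overlap, and the log2 difference was 0.75 ± 0.15 (adjusted p = 0.00018). The median over all tested miRNAs was 0.37 in this comparison. With values centred on the median miRNA of each library, miR-200c-3p remained higher, by 0.48 (adjusted p = 0.00896).

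miR-200a-3p was at 988, 1489, 898, and 598 TPM in WT and at 1079, 814, 986, and 989 TPM in *Ago2* KO. The *Ago2* KO libraries lay inside the WT range, and the log2 difference was 0.03 ± 0.29 (adjusted p = 0.936). Its sign turned to -0.23 with median centring, so no direction can be given.

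In all, 2 of 5 tested members rose and 2 fell between *Ago2* KO and WT, where 47.4% of the 249 tested miRNAs rose and 35.3% fell (82.7% called in all). A call in this comparison was therefore the usual outcome. Neither the seed nor the locus fixed the direction. Among the members with the seed AAUACUG, the log2 differences were 3.00, 0.75, and -1.76. The members with the seed AACACUG were at 0.03 and -3.51. On chromosome 4, miR-200b-3p, miR-200a-3p, and miR-429-3p were at 3.00, 0.03, and -1.76, and on chromosome 6, miR-200c-3p and miR-141-3p were at 0.75 and -3.51. The 2 members that rose are the 3p arms that end in A, while those that fell end in U and G. However, miR-200a-3p, at 0.03, also ends in U. Of the 5p arms that end in A, miR-200a-5p and miR-200b-5p rose and miR-141-5p did not pass, in the fit given below. Over the 215 tested miRNAs with a RefSeq sequence, the median log2 difference was 0.61 for the 34 that end in A and 0.75 for the 45 in C. It was 0.08 for the 45 in G and 0.00 for the 91 in U. Called as higher were 18 of the 34 in A, 27 of the 45 in C, 17 of the 45 in G, and 38 of the 91 in U. These values are a description with no test, made after the differences were seen.

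**Figure D2:**
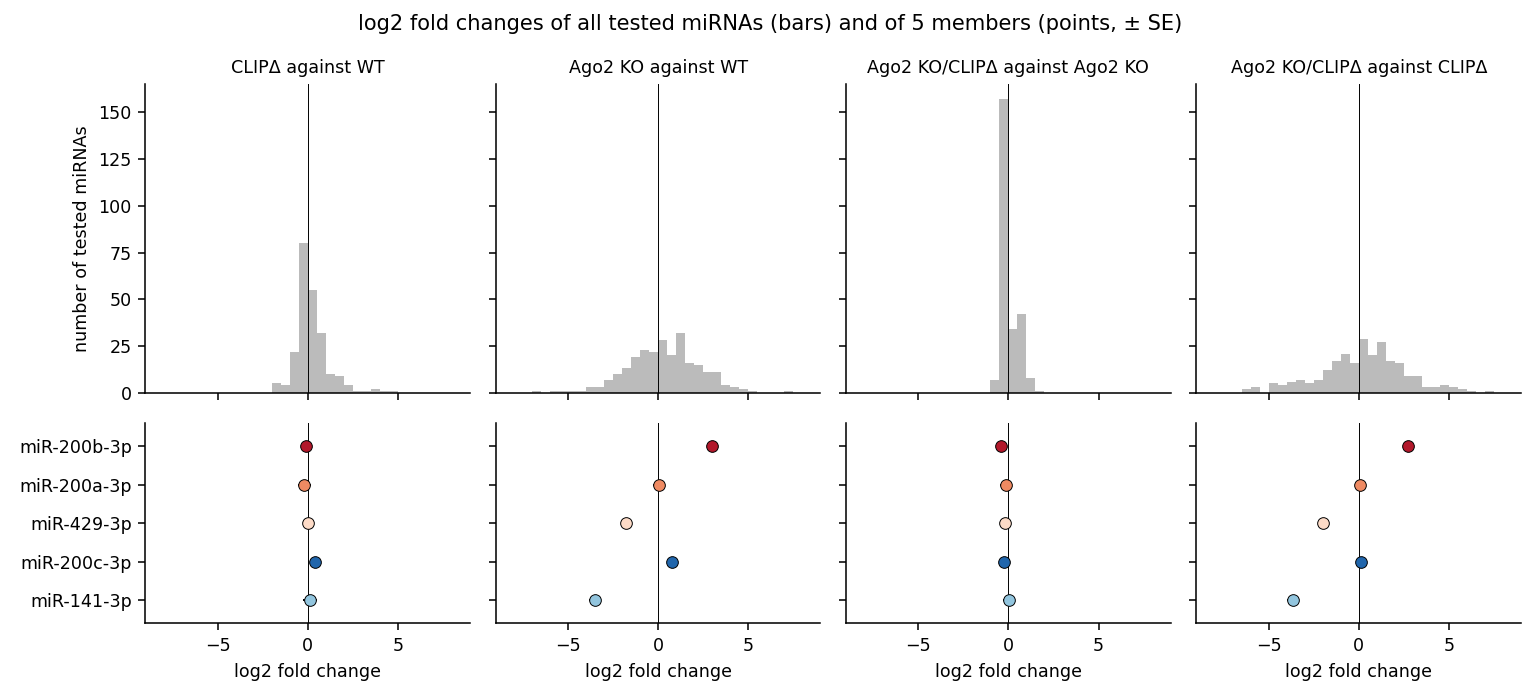
Upper panels show the number of tested miRNAs (y axis) at each log2 fold change (x axis) in the 4 comparisons, and lower panels show the 5 tested members as points with their SE, which is mostly hidden behind the points. In *Ago2* KO against WT the members run from -3.51 for miR-141-3p to 3.00 for miR-200b-3p, and in CLIPΔ against WT from -0.19 to 0.38.

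The 5p arms were below the filter and were tested in the fit without it, which called 71.6% of 507 miRNAs and 44% as higher in *Ago2* KO. miR-200a-5p was at 63.9, 70.3, 45.8, and 34.7 TPM in WT and at 163, 141.4, 91.2, and 140.3 TPM in *Ago2* KO. It rose without overlap, by 1.32 ± 0.24 on the log2 scale (adjusted p = 7.7e-05). miR-200b-5p was at 39.5, 37.9, 26.2, and 37.0 TPM in WT and at 63.6, 76.9, 59.0, and 47.1 TPM in *Ago2* KO. It too rose without overlap, by 0.79 ± 0.24 (adjusted p = 0.0069). The log2 differences of miR-141-5p, 0.16 ± 0.40, and of miR-200c-5p, 0.34 ± 0.32, did not pass (adjusted p = 0.720 and 0.350). miR-200c-5p rested on 2 to 6 inferred reads per *Ago2* KO library.

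The second pair of genotypes that differ in *Ago2*, *Ago2* KO/CLIPΔ and CLIPΔ, shares no library with the first. In CLIPΔ, miR-200b-3p was at 508, 754, 628, and 495 TPM, and in *Ago2* KO/CLIPΔ it was at 4038, 4172, 3757, and 3610.5 TPM. miR-141-3p was at 232, 364, 189, and 119 TPM in CLIPΔ and at 15.1, 15.3, 18.5, and 15.3 TPM in *Ago2* KO/CLIPΔ. For miR-429-3p the values were 431, 705, 694, and 417 TPM against 168, 155, 116, and 116 TPM. The groups of all 3 members were apart. The log2 differences were 2.72 ± 0.15, -3.63 ± 0.32, and -1.98 ± 0.20 (limma, adjusted p = 1.1e-11, 1.1e-08, and 7.1e-08). Hence 1 of 5 tested members rose and 2 fell, where 47.8% of the 249 miRNAs rose and 35.3% fell (83.1% called in all).

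The remaining 2 members did not pass in that pair. miR-200c-3p was at 2249, 2049.7, 2134, and 2173 TPM in *Ago2* KO/CLIPΔ, a log2 difference of 0.13 ± 0.15 from CLIPΔ (adjusted p = 0.407), and its sign turned under median centring. miR-200a-3p was at 841, 899, 889, and 836 TPM against 688, 1402, 1055, and 460.0 TPM in CLIPΔ, a difference of 0.07 ± 0.29 (adjusted p = 0.839) that turned as well. Among the 5p arms, tested without the filter, miR-200a-5p (1.21 ± 0.24), miR-200b-5p (0.79 ± 0.24), and miR-200c-5p (0.96 ± 0.32) rose, with adjusted p of 0.00018, 0.0061, and 0.0118, where that fit called 74.4% of 507 miRNAs and 40.4% as higher. The call for miR-200c-5p rests on 6 to 13 inferred reads per *Ago2* KO/CLIPΔ library. The value of miR-141-5p was -0.17 ± 0.40 (adjusted p = 0.719).

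*Ago2* KO/CLIPΔ and *Ago2* KO differ in the CLIPΔ deletion when *Ago2* is absent. None of the 5 tested members passed, where 22.1% of the 249 miRNAs did (48 higher and 7 lower, or 43 and 25 with median centring). miR-200b-3p came closest. All 4 of its *Ago2* KO/CLIPΔ libraries were below all 4 *Ago2* KO libraries, and the log2 difference was -0.39 ± 0.15 (adjusted p = 0.0682). With the replicate number as a block in limma it had an adjusted p of 0.0131, in a fit that called 41% of the miRNAs. The numbers paired these libraries less clearly than the letters paired WT and CLIPΔ (the evidence is given with the processing). With median centring the difference of miR-200b-3p was -0.49 (adjusted p = 0.00891). The other log2 differences were -0.23 ± 0.15 for miR-200c-3p, -0.15 ± 0.29 for miR-200a-3p, -0.18 ± 0.20 for miR-429-3p, and 0.01 ± 0.32 for miR-141-3p, beside a median of -0.14 over all tested miRNAs. The sign of miR-141-3p turned under median centring. The groups of miR-200c-3p did not overlap either, with at most 2249 TPM in *Ago2* KO/CLIPΔ and at least 2303 TPM in *Ago2* KO.

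The 5p arms in that comparison, tested without the filter, were at -0.46 ± 0.24 for miR-200a-5p, -0.38 ± 0.24 for miR-200b-5p, 0.81 ± 0.32 for miR-200c-5p, and -0.16 ± 0.40 for miR-141-5p. None passed (limma, adjusted p from 0.106 to 0.859), where 16.4% of the 507 miRNAs did. Both miR-200a-5p and miR-200b-5p were lower in *Ago2* KO/CLIPΔ at all 4 numbers, and miR-200c-5p was higher at all 4. With the number as a block, a fit without the filter that called 28% of the miRNAs, miR-200a-5p fell (adjusted p = 0.0490), while miR-200c-5p and miR-200b-5p had adjusted p of 0.0541 and 0.192.

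The interaction term asks whether the CLIPΔ deletion acted differently with and without *Ago2*. It passed for 1 of 5 tested members, miR-200c-3p, at -0.61 ± 0.21 on the log2 scale (limma, adjusted p = 0.0227), while 26.5% of the 249 miRNAs passed with a negative and 49.4% with either sign. In words, miR-200c-3p was higher in CLIPΔ than in WT but lower in *Ago2* KO/CLIPΔ than in *Ago2* KO, at all 4 letters and all 4 numbers. The call was lost without WT library C (-0.48, adjusted p = 0.0526), the lowest of the WT libraries, and with median centring (-0.49, adjusted p = 0.0870). The interactions of the other members were -0.27 ± 0.21 for miR-200b-3p, -0.22 ± 0.29 for miR-429-3p, -0.12 ± 0.46 for miR-141-3p, and 0.04 ± 0.41 for miR-200a-3p, with adjusted p from 0.309 to 0.976.

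These changes altered the make-up of the family. miR-200b-3p made up 16.2% ± 1.63 (SD, n = 4) of the family's TPM in WT and 56.7% ± 1.28 in *Ago2* KO. The share of miR-200c-3p went from 38.4% ± 6.82 to 28.1% ± 1.60, and that of miR-200a-3p from 24.3% ± 5.31 to 10.8% ± 2.03. miR-200b-3p thus became the highest member in place of miR-200c-3p, and in *Ago2* KO the first 4 members no longer overlapped in level. miR-429-3p fell from 13.4% ± 1.32 to 1.73% ± 0.193 of the family and miR-141-3p from 4.95% (range 3.41% to 6.59%) to 0.183% (0.128% to 0.279%). The summed level of the 9 members was 4018 ± 788 TPM in WT, 4349.6 ± 659.9 TPM in CLIPΔ, 9035 ± 907 TPM in *Ago2* KO, and 7239.5 ± 302 TPM in *Ago2* KO/CLIPΔ. The seed AAUACUG held 67.9% ± 6.79 of the family in WT and 86.5% ± 2.24 in *Ago2* KO, without overlap. The summed level of the seed AACACUG was 1198 ± 463 TPM in WT and 983 ± 115 TPM in *Ago2* KO, and these ranges overlapped.

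**Figure D3:**
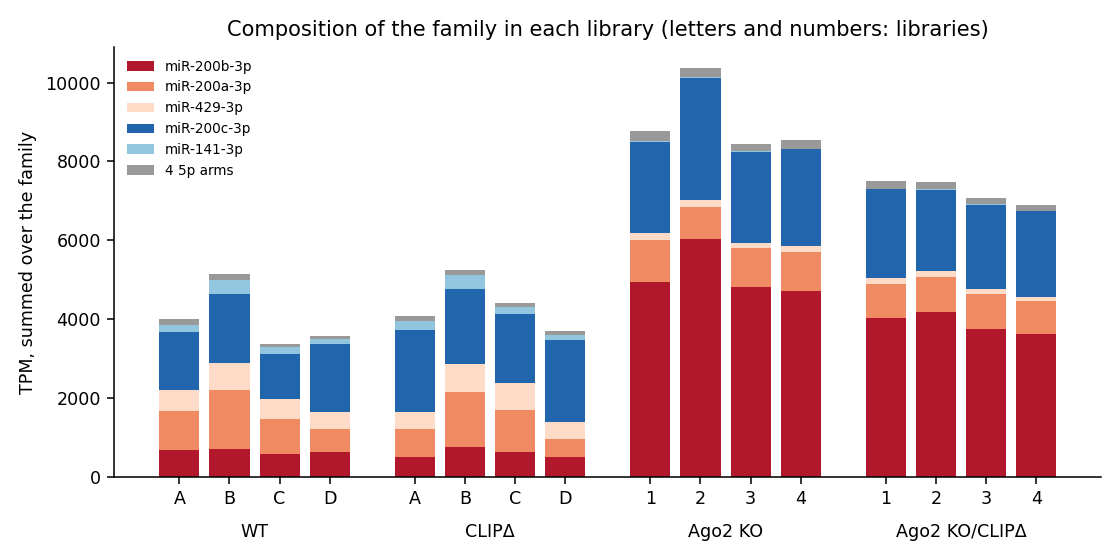
TPM of the family in each of the 16 small-RNA-seq libraries, stacked by member, with library letters and numbers on the x axis. miR-200b-3p makes up 13.7% to 17.3% of the stack in WT libraries and 55.1% to 58.2% in *Ago2* KO libraries.

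Ratios within a library do not depend on the library total. Mir200b and Mir429 are in 1 cluster, and the ratio of miR-200b-3p to miR-429-3p was 1.04 to 1.48 in WT, 0.905 to 1.19 in CLIPΔ, 28.6 to 37.7 in *Ago2* KO, and 24.0 to 32.3 in *Ago2* KO/CLIPΔ. For miR-200c-3p and miR-141-3p, which are also neighbours, it was 5.23 to 14.2 in WT, 5.23 to 17.7 in CLIPΔ, 94.1 to 234 in *Ago2* KO, and 115 to 149 in *Ago2* KO/CLIPΔ. Both ratios thus overlapped between the 2 genotypes with *Ago2*, and both lay above that range in every library without it.

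The 2 arms of a hairpin also changed against each other. Of the hairpin of miR-141, the 5p arm held 12.8%, 10.996%, 9.39%, and 7.73% of the summed TPM of both arms in the WT libraries and 51.2%, 57.6%, 64.9%, and 67.6% in the *Ago2* KO libraries. The more abundant arm was thus 3p in every WT library and 5p in every *Ago2* KO library, although in *Ago2* KO library 1 this rested on 21 against 20 inferred reads. The other 3 *Ago2* KO libraries had 19 to 25 reads of the 5p arm and 12 to 14 of the 3p arm. The log2 ratio of 5p to 3p rose by 3.67 ± 0.25 (limma over 134 hairpins, adjusted p = 2.5e-10), 9th from the highest of the 134. In *Ago2* KO/CLIPΔ the 5p share was at least 54.3% in every library.

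The share of miR-200a-5p rose as well, from 4.51% to 6.08% in WT to 8.47% to 14.8% in *Ago2* KO, a change of 1.29 ± 0.28 in the log2 ratio (adjusted p = 0.00041). miR-200b went the other way, from 4.39% to 5.65% 5p in WT to 0.991% to 1.27% in *Ago2* KO, which is -2.21 ± 0.26 (adjusted p = 4.7e-07). For miR-200c the 5p arm stayed under 0.278% in both genotypes and the log2 ratio changed by -0.41 ± 0.29 (adjusted p = 0.207). This one passed without *Ago2* KO library 3 (-0.65, adjusted p = 0.0432) and with a pseudocount of 10 (-0.61, adjusted p = 0.0041). However, the 5p shares overlapped, at 0.155% to 0.244% in WT and 0.0936% to 0.277% in *Ago2* KO. miR-200c-5p averaged 2.87 TPM in WT and 4.22 TPM in *Ago2* KO. Both are below a pseudocount of 10, with which the ratio mostly follows the 3p arm. Of 134 hairpins, 77.6% were called, 26.9% toward 5p and 50.7% toward 3p, and the median change was -0.80. Hence 2 of 4 family hairpins moved toward 5p and 1 toward 3p. Between CLIPΔ and WT none of the 4 hairpins passed, with changes from -0.27 to 0.05 and an adjusted p of 0.992 each, and 0% of 128 hairpins were called (limma; 7 had an unadjusted p under 0.05). With the letter as a block 6.25% were called, again with none of the 4, whose adjusted p ran from 0.667 to 0.939.

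**Figure D4:**
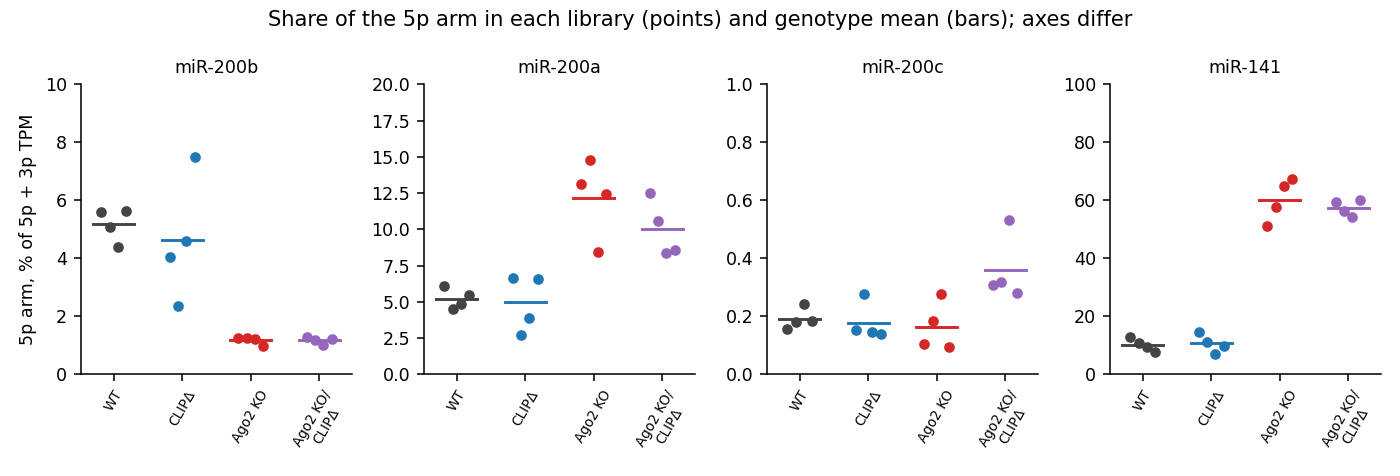
Percentage of the 5p arm in the summed TPM of both arms (y axis, a different scale in each panel) for the 4 hairpins with both arms in the table. Points are libraries and bars are means of 4 libraries by genotype, and the miR-141 libraries run from 7.18% to 14.7% in WT and CLIPΔ and from 51.2% to 67.6% without *Ago2*.

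Some members varied widely between libraries of 1 genotype. The highest library was 2.49 times the lowest for miR-200a-3p in WT and 3.05 times in CLIPΔ, but 1.33 times in *Ago2* KO and 1.08 times in *Ago2* KO/CLIPΔ. This variation followed the library letters. So did that of all 227 tested miRNAs, more clearly for B and D (r = 0.71 and 0.74 between WT and CLIPΔ) than for A and C (0.38 and 0.35). Following the letters was therefore not particular to the family, and the counts below were not made for all miRNAs. In both WT and CLIPΔ, library B was the highest for 5 of 9 members and library D the lowest for 5 of 9. miR-141-3p, for example, was at 338 and 364 TPM in the B libraries and at 122 and 119 TPM in the D libraries. miR-200c-3p did not follow this pattern, since its D libraries were at 1732 and 2107 TPM, near the top of their groups. Library D was also the shallowest of each group (5411246 and 3133864 inferred reads), and library B the deepest (8349737 and 7889709). The part of depth in this pattern was not tested.

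**Figure D5:**
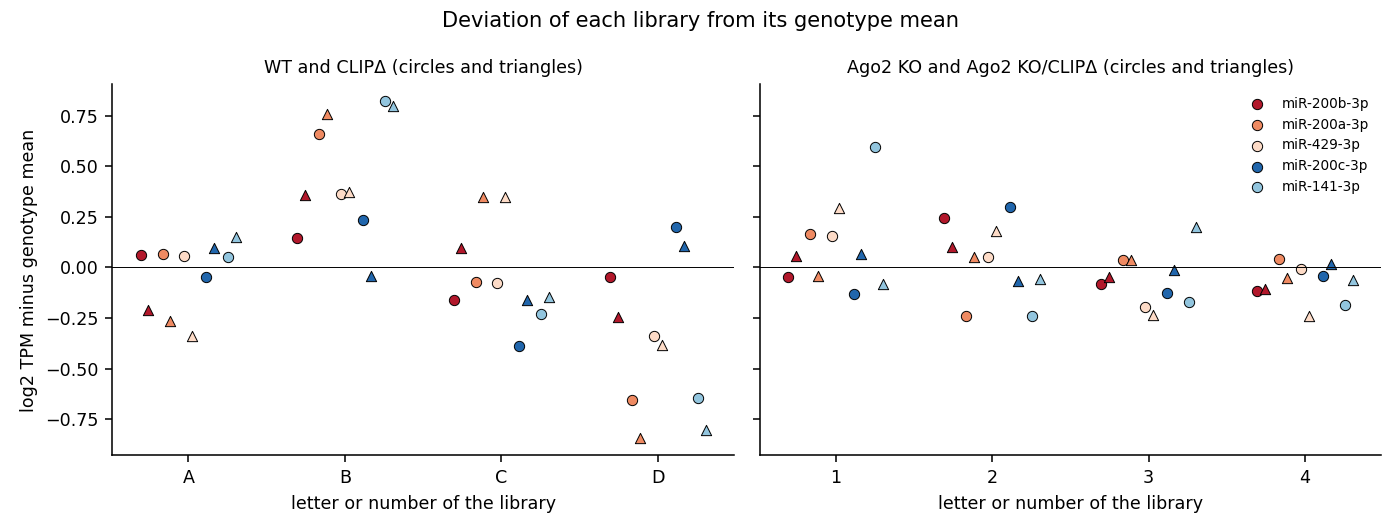
Difference of each library from the mean of its genotype, on the log2 TPM scale (y axis), for the 5 3p arms, by library letter or number (x axis). Circles are WT or *Ago2* KO and triangles CLIPΔ or *Ago2* KO/CLIPΔ, and the B libraries of miR-200a-3p and miR-141-3p lie above their means in both WT and CLIPΔ while the D libraries lie below.

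The same variation within genotypes was used to find the miRNAs most like the family. The mean over the 9 members of log2 values centred on each genotype was compared with that of each of 244 other tested miRNAs over the 16 libraries. The highest Pearson correlations were with miR-499-5p (r = 0.928), miR-27b-3p (0.906), miR-142a-5p (0.895), miR-147-3p (0.888), and miR-467e-5p (0.870). These values are descriptions, because the points share library depth and the letters. Members followed the mean of the other members unequally, from r = 0.826 for miR-141-3p, 0.762 for miR-200a-3p, and 0.688 for miR-200b-3p to 0.082 for miR-200c-3p and -0.33 for miR-200b-5p.

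In the RNA-seq, the repressors of the miR-200 genes were low in all 12 libraries. *Zeb1* was at 1.14 and 0.769 TPM in WT, 1.13 and 0.795 TPM in CLIPΔ, 0.455 to 0.582 TPM in *Ago2* KO, and 0.446 to 0.569 TPM in *Ago2* KO/CLIPΔ. *Zeb2* did not exceed 0.0338 TPM in any library. Both were below the mean of 1 TPM required for a test, as was *Cdh2*, the mesenchymal cadherin, at no more than 0.229 TPM.

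A list of 24 published miR-200 targets gave 18 genes that could be tested. In *Ago2* KO against WT, 11 of 18 fell and 1 rose, where 42.4% of 11287 genes fell and 14% rose (limma; 56.4% called in all). The median log2 difference was -0.34, beside -0.26 over all genes tested. The Notch ligand *Jag1* fell by 1.55 ± 0.28, the matrix protein fibronectin (*Fn1*) by 1.26 ± 0.27, and the Polycomb genes *Suz12* and *Bmi1* by 1.24 ± 0.20 and 1.21 ± 0.21, with adjusted p of 0.00076, 0.0022, 0.00043, and 0.00078. *Qk*, *Wasf3*, *Sec23a*, *Yap1*, *Msn*, *Marcks*, and *Mapk14* were also lower, by 0.28 to 0.84. The tubulin *Tubb3* rose by 1.61 ± 0.17 (adjusted p = 5.1e-05), from 40.1 and 51.6 TPM in WT to between 136 and 147 TPM in *Ago2* KO. Without WT replicate 1, 8 of 18 targets fell, where 29.5% of genes did, and *Sec23a*, *Mapk14*, and *Marcks* lost their calls. *Mapk14* and *Marcks* also lost them without any 1 of *Ago2* KO replicates 2, 3, and 4, and *Marcks* and *Msn* without WT replicate 2. These counts describe the list beside all genes and were not tested as a set.

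Of 20 epithelial genes, 17 were tested and 10 fell while 2 rose in *Ago2* KO against WT, beside the 42.4% of all genes that fell and the 14% that rose. E-cadherin (*Cdh1*) was at 205 and 163 TPM in WT and at 101, 97.3, 98.1, and 97.2 TPM in *Ago2* KO, a fall of 0.89 ± 0.12 (adjusted p = 0.00019). The adhesion molecule *Epcam* fell by 0.74 ± 0.10 (adjusted p = 0.00015), from 30.9 and 27.0 TPM to between 15.7 and 18.2 TPM. *Dsp*, *Cldn7*, and *Tjp1*, which are parts of cell junctions, fell by 1.66, 1.34, and 1.10, and *Lsr*, *Ovol2*, *Cldn6*, *Ocln*, and *Crb3* by 0.35 to 0.60. The keratin *Krt18* rose by 0.92 ± 0.20 and *Cldn3* by 0.46 ± 0.16 (adjusted p = 0.0021 and 0.0252). Without WT replicate 1, 5 of 17 epithelial genes fell and 2 rose, where 29.5% of all genes fell and 7.56% rose, and *Cldn6*, *Crb3*, *Cldn3*, *Lsr*, *Ocln*, and *Ovol2* lost their calls. Single *Ago2* KO libraries also decided *Crb3* (replicate 2 or 4) and *Cldn3* and *Ovol2* (replicate 3 or 4), and WT replicate 2 decided *Ovol2*.

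Of 15 mesenchymal genes, 7 were tested. In *Ago2* KO against WT, 2 rose and 1 fell, beside the 14% of all genes that rose and the 42.4% that fell. The other tested genes, *Vim* among them, did not pass. *Snai1*, a repressor of *Cdh1*, rose by 0.50 ± 0.09 and the matrix gene *Sparc* by 0.60 ± 0.10 (adjusted p = 0.0011 and 0.00050), while *Tagln* fell by 0.93 ± 0.30 (adjusted p = 0.0197), a call that was lost without WT replicate 1 (-0.45, adjusted p = 0.295). *Vim*, the mesenchymal filament, was at 308 and 328 TPM in WT and at 423, 409.9, 325, and 327 TPM in *Ago2* KO, a difference of 0.21 ± 0.23 (adjusted p = 0.439). Between CLIPΔ and WT, no gene of the 3 lists passed without a replicate block, and neither did any of the 11642 genes tested (0% called; limma, with 604 at an unadjusted p under 0.05). The differences there were 0.11 ± 0.21 for *Cdh1*, -0.17 ± 0.17 for *Epcam*, and -0.14 ± 0.27 for *Vim*.

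The genes beside the loci were compared with the miRNAs in the same way. *Phb2*, which ends 969 bp from the chromosome 6 hairpins, was at 1211 and 1549 TPM in WT and at 2546, 2518, 2354, and 2378 TPM in *Ago2* KO, a rise of 0.84 ± 0.13 (adjusted p = 0.00045). *Ptpn6*, 2317 bp away on the other side, was at 36.5 and 33.3 TPM in WT and at 37.3 to 40.6 TPM in *Ago2* KO (0.14 ± 0.11, adjusted p = 0.307). Near chromosome 4, 9430015G10Rik differed by -0.55 ± 0.28 (adjusted p = 0.111), and *Ttll10* did not exceed 0.257 TPM in any library. The overlapping Gm13648, looked up because it covers the hairpins, was at 0.0439 and 0.139 TPM in WT and at 0.197 to 0.339 TPM in *Ago2* KO, too low to test. Between CLIPΔ and WT, the differences were 0.03 ± 0.22 for *Phb2*, 0.36 ± 0.21 for *Ptpn6*, and -0.40 ± 0.29 for 9430015G10Rik, with an adjusted p of 1.000 each.

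None of the 498 deposited Trim71 CLIP-seq peaks lay within 100 kb of either locus, and the nearest ones were 6236133 bp away on chromosome 4 and 2006865 bp away on chromosome 6. The number of peaks expected in such windows was not computed, so their absence does not show whether Trim71 binds transcripts of these loci. Among the 24 listed targets, *Zeb1*, *Suz12*, and *Yap1* each held 1 peak, and the epithelial and mesenchymal lists held none. The share of all genes that held a peak was not counted, so these numbers do not set the lists apart.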

How the data were processed

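Small-RNA-seq libraries, 16 in number, and RNA-seq libraries, 12 in number, were analysed. The authors trimmed reads with cutadapt, mapped them to mm10 with HISAT2 2.1.0, counted them, and deposited TPM values per miRNA or gene without pooling replicates. For CLIP-seq they deposited read counts per peak of 1 pooled list, from which only positions were used here. Small-RNA-seq columns of WT and CLIPΔ are lettered, where the labels number the samples, so a column's genotype was known but not its sample. The CLIPΔ columns carry a code that the double-mutant columns carry beside *Ago2*. It was read as CLIPΔ by elimination. The members and the gene lists were chosen with earlier results of these data known.

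miRNA values were rescaled to a total of 1000000 and tested as log2(TPM + 1) with limma 3.58.1 in R 4.3.3 (lmFit, eBayes with trend), with Benjamini-Hochberg adjustment over all tested miRNAs and a threshold of 0.05. miRNAs needed a mean of 100 TPM and genes a mean of 1 TPM. Fold changes on this scale understate changes of low values. CLIPΔ against WT used the 8 libraries concerned, and the other comparisons used all 16, with all 12 for *Ago2* KO in RNA-seq. The count test of the authors could not be run on TPM. Named genes were all members, the 5 most alike miRNAs, *Zeb1*, *Zeb2*, *Cdh1*, *Epcam*, *Vim*, *Cdh2*, *Ago2*, the genes beside the loci, and any listed gene past the threshold. The functions were tested on simulated data. Figures used matplotlib 3.10.9 in Python 3.11.15.

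Deviations from the genotype mean correlated between WT and CLIPΔ libraries of the same letter (r = 0.38, 0.71, 0.35, and 0.74 for A to D, median -0.13 for other pairs). Between *Ago2* KO and *Ago2* KO/CLIPΔ libraries of the same number, r was 0.16, 0.37, 0.52, and 0.36 (median -0.21 for other pairs). For every letter, the CLIPΔ library most like a WT library carried the same letter. For no number did the *Ago2* KO/CLIPΔ library most like an *Ago2* KO library carry the same number. The numbers are therefore weaker evidence of pairing than the letters, although both were treated as paired in the block fits. The pairing comes from the data, not from the labels. miRNA sequences were matched by name for 442 of the 507 miRNAs. The depth of the RNA-seq libraries is unknown. Alternatives were another pseudocount, no filter, median centring, scaling to miRNAs outside the family, other libraries in the fit, the replicate block, and leaving out each library. The block without the filter was chosen after seeing the data.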

Additional observations from a re-analysis of the deposited data

Results flagged for a closer look

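In groups of 4 libraries, a library far from the other 3 stood out in 3 cases, and chance alone gives about 1 such case in 20 groups, of which 36 were examined. miR-141-3p was at 24.5 TPM in *Ago2* KO library 1, where the other 3 were at 13.3 to 13.9 TPM. It was at 18.5 TPM in *Ago2* KO/CLIPΔ library 3, where the others were at 15.1 to 15.3 TPM. miR-200c-5p was at 11.4 TPM in that same *Ago2* KO/CLIPΔ library 3, with the others at 6.10 to 6.95 TPM. These values rest on 6 to 21 inferred reads per library.

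The difference of miR-200c-3p between libraries with and without the CLIPΔ deletion was not the same with and without *Ago2*. The interaction was -0.61 on the log2 scale (limma, adjusted p = 0.0227), a term that 49.4% of the 249 tested miRNAs passed. The difference with *Ago2* did not pass in the fit of its 8 libraries (adjusted p = 0.156). It did pass in the fit of all 16 libraries that gave the interaction, as stated in the next section. The difference without *Ago2* did not pass in that fit (adjusted p = 0.320). The interaction missed the threshold without WT library C (-0.48, adjusted p = 0.0526) and with median centring (-0.49, adjusted p = 0.0870). The *Ago2* genotype cannot be told apart from the library sets.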

How the results depend on the processing

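Counts of calls moved by over 1.5 times under some settings. Without the filter on low values, 136 miRNAs were called for CLIPΔ against WT, 363 for *Ago2* KO against WT, 83 for *Ago2* KO/CLIPΔ against *Ago2* KO, 377 for *Ago2* KO/CLIPΔ against CLIPΔ, and 211 for the interaction, since more miRNAs were tested. CLIPΔ against WT gave 115 calls with all 16 libraries in the fit, which also called miR-200c-3p (0.38, adjusted p = 0.0460). *Ago2* KO/CLIPΔ against *Ago2* KO gave 121 with only its 8 libraries, miR-200b-3p among them (-0.39, adjusted p = 0.00287). The replicate block raised the calls to 125 for CLIPΔ against WT and 102 for *Ago2* KO/CLIPΔ against *Ago2* KO, and the 5p to 3p ratios called for CLIPΔ against WT from 0 to 8, where a pseudocount of 10 gave 3. The block without the filter, chosen after seeing the data, gave 259 and 142 calls. Beyond miR-200c-3p, miR-200b-3p, and miR-200a-5p, given with the results, the block changed no member's call in these comparisons. Numbers in the RNA-seq pair no samples by the labels. The correlation was 0.72 for the 2 pairs of CLIPΔ and WT. With 2 libraries in each genotype both pairs must give the same value, so they are not separate evidence of pairing. Under the block in limma 333 genes were called, among them *Cldn3* (0.79, adjusted p = 0.0318) and *Mmp14* (-0.82, adjusted p = 0.0409). For *Ago2* KO and WT the correlations were 0.064 and -0.15. There the block moved 9430015G10Rik to -0.81 (adjusted p = 0.0121) and *Vim* to 0.45 (adjusted p = 0.0326), called *Krt8*, *Twist1*, and *Esrp2* as higher (0.51, 0.39, and 0.41, adjusted p = 0.00748, 0.0393, and 0.0474), and *Mapk14*, *Cldn3*, *Ovol2*, and *Crb3* missed the threshold, with adjusted p of 0.0567 to 0.0889. The cause of these differences was not tested.

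Signs turned only for values that missed the threshold. With median centring, CLIPΔ against WT gave -0.072 for miR-141-3p and -0.16 for miR-429-3p, *Ago2* KO against WT gave -0.23 for miR-200a-3p, *Ago2* KO/CLIPΔ against *Ago2* KO gave -0.090 for miR-141-3p (-0.00068 with a pseudocount of 10), *Ago2* KO/CLIPΔ against CLIPΔ gave -0.0054 for miR-200c-3p and -0.074 for miR-200a-3p, and the interaction of miR-141-3p was 0.0044. Leaving out 1 library at a time, CLIPΔ against WT ran from -0.14 to 0.40 for miR-141-3p, from -0.080 to 0.17 for miR-429-3p, and from -0.44 to 0.094 for miR-200a-3p. For miR-200a-3p, *Ago2* KO against WT ran from -0.19 to 0.25, *Ago2* KO/CLIPΔ against CLIPΔ from -0.22 to 0.32, and the interaction from -0.25 to 0.29. For miR-141-3p, *Ago2* KO/CLIPΔ against *Ago2* KO ran from -0.068 to 0.21 and the interaction from -0.39 to 0.10. The 5p to 3p ratios of CLIPΔ against WT ran from -0.34 to 0.11 for miR-200a, from -0.55 to 0.019 for miR-200b, and from -0.13 to 0.23 for miR-141, with 0 to 1 hairpins called (1 without WT library B). In the RNA-seq, CLIPΔ against WT ran from -0.27 to 0.14 for *Ago2*, from -0.16 to 0.22 for *Phb2*, from -0.062 to 0.29 for *Cdh1*, and from -0.50 to 0.22 for *Vim*, with 0 to 186 genes called (42 without CLIPΔ replicate 1 and 186 without CLIPΔ replicate 2). *Ago2* KO against WT had 4150 to 6453 genes called, the lowest without WT replicate 1. A group left with 1 library is assumed to vary like the others. Of the other values for members, 344 kept their direction and side of the threshold, 7 passed it, and 2 fell short of it.

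Low read numbers limit miR-141-3p and miR-200c-5p in cells without *Ago2*, and 2 WT libraries limit the RNA-seq.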
